A study of Homo sapiens with 4 samples.

Results

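The genes described here are 42 known targets of the transcription factor p53 that act in cell cycle arrest, DNA repair, metabolism, feedback on p53 and membrane signalling, out of 29286 genes with a value in each library. They were taken by symbol from a list whose rule uses no measured value but which was drawn up with earlier results of these data known, and each of the 42 symbols matched 1 Ensembl identifier. The RNA came from HCT116, a long-established colorectal carcinoma cell line of human origin, infected with lentivirus that carried either a short hairpin against WDR43 (shWDR43) or a control hairpin, called shNC here and shNC2 in the titles. Both groups were infected for 48 h and then kept under puromycin for 3 days, and each group had 2 libraries. The labels name the shWDR43 hairpin without its sequence and do not say whether the replicates are separate cultures. P-values therefore cover only the spread among these libraries, which may be technical. The level of WDR43 was not analysed here, so the group labels have no check from the targeted gene.

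The protein p53 is a DNA-binding factor that is held at low levels by the ubiquitin ligase MDM2 and is stabilised when cells meet DNA damage, nucleolar stress or oncogene activity. It then switches on genes that stop the cell cycle, repair DNA, alter metabolism or damp p53 itself. WDR43 acts in the nucleolus, in the processome that builds the small ribosomal subunit. The comparison of shWDR43 with shNC asks how transcript levels differ after knockdown of WDR43, and the series title names p53 activity as its subject.

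Many of the p53 targets were higher in shWDR43 cells. Of the 42 genes, 39 were tested, because 3 did not reach 1 FPKM (a fragment level adjusted for library size and transcript length) in at least 2 libraries. Of the 39, 23 rose, 0 fell and 16 did not pass the test (limma on log2 of FPKM + 1, Benjamini-Hochberg adjusted p below 0.05 over 13303 genes). In the same fit 4.79% of all tested genes rose and 1.47% fell. The median log2 change of the 39 was 0.49, against 0.05 for all tested genes. The number of calls moved with the library left out: 16 of the 39 rose without shWDR43 replicate 1 and 15 without shWDR43 replicate 2, while the median log2 change of the 39 was 0.48 and 0.50.

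The 2 groups of libraries rarely overlapped for these genes. Both shWDR43 libraries were above both shNC libraries for 35 of the 39 tested genes, against 35.8% of all tested genes. KITLG was the 1 gene with both shWDR43 libraries below both shNC libraries, against 21.5% of all tested genes. At least 1.5 times the control mean in FPKM was reached by 17 of the 39 (3.97% of all tested genes) and at least 2 times by 8 (0.752% of all tested genes). In the 4 pairs of a shWDR43 and a shNC library, the median log2 difference of the 39 was 0.53, 0.47, 0.51 and 0.48. Between the 2 shNC libraries that median was -0.06, and between the 2 shWDR43 libraries it was 0.01. The summed level of all 42 genes was 1043 and 1106 FPKM in shNC and 1631 and 1602 FPKM in shWDR43, or 0.265% and 0.267% of all FPKM against 0.396% and 0.398%. In bulk RNA, a gene that is raised in every cell and a larger share of cells that express it cannot be told apart.

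**Figure D1:**
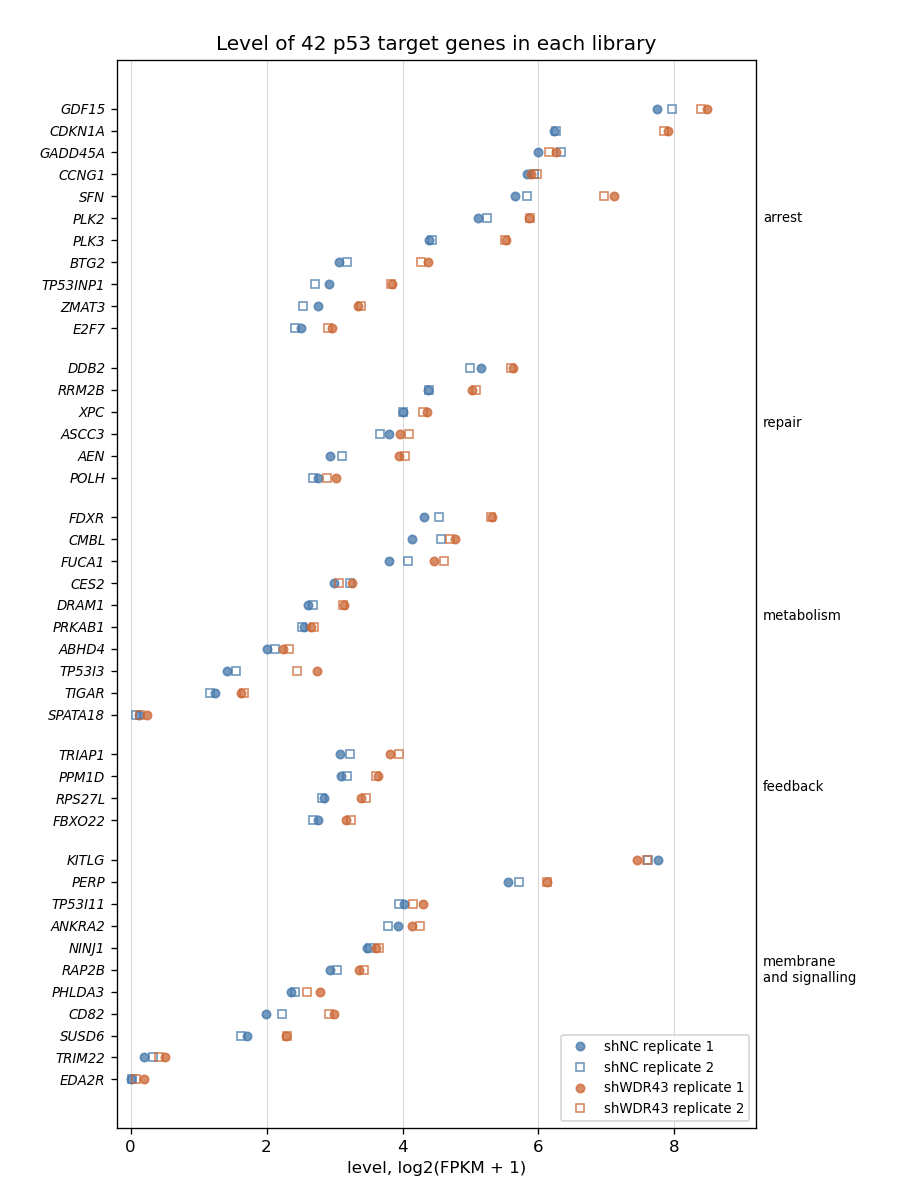
Level of each of the 42 genes in the 4 libraries, on a log2(FPKM + 1) axis, grouped by role and ordered by the shNC mean. Blue marks are shNC and orange marks shWDR43, with filled circles for replicate 1 and open squares for replicate 2. The orange marks lie to the right of the blue ones for CDKN1A, SFN, BTG2 and PLK3, and overlap them for GADD45A, CCNG1 and CES2.

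Short stretches of promoter are shown for the genes that rose and that hold a p53 element near a start, since p53 binds DNA as pairs of this element. The 10-base p53 consensus element, which reads the same on both strands, was searched without mismatch in windows from 250 bases before to 50 after each RefSeq start (GRCh38.p14). Windows were found for 34 of the 42 genes. Of these, 7 held an element (20.6%), against 7.45% of 9852 tested genes with a window and 8.06% of 27305 genes in all. A pair of elements with up to 13 bases between them and at most 2 mismatches in total, none of them at the central C and G of either element, was present for 4 of the 34 (11.8%), against 3.39% of the tested genes. A pair with no mismatch was present for 1 of the 34, DDB2, and for 4 of the 9852 tested genes. Genes with a pair can also hold a single element, so these counts overlap. The genes with an element were PLK2, DDB2, AEN, FDXR and RPS27L, which rose, and ABHD4 and RAP2B, which did not pass the test. The 4 pairs were those of DDB2, AEN and FDXR and that of ABHD4, with 10 bases between its elements and 2 mismatches. In the sequences below, on the gene's strand and 5′ to 3′, capitals mark the element or both elements of the pair.
DDB2, chr11:47214979-47214999, plus strand, bases 6 to 26 after a start: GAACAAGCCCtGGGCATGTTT
AEN, chr15:88621266-88621339, plus strand, the 74 bases before the start: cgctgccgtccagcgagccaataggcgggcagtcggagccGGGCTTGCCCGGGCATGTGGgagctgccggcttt
FDXR, chr17:74872995-74873065, minus strand, the 71 bases before a start: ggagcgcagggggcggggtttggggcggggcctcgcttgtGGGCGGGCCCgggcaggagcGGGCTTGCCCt
PLK2, chr5:58460169-58460258, minus strand, element from -132 to -123 relative to the start: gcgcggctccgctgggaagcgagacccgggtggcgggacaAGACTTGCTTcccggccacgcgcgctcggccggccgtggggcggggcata
RPS27L, chr15:63157487-63157576, minus strand, element from -59 to -50 relative to the start: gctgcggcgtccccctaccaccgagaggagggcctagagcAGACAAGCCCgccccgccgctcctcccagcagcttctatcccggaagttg
The pair of DDB2 has 1 base between its elements, that of AEN has 0 and that of FDXR has 10. The AEN and FDXR pairs carry 2 mismatches each. Both mismatches of the FDXR pair lie at the 2 bases between the central C and G of its first element, so that core is not intact. These are matches of letters in a window, and binding by p53 was not measured. For CDKN1A, SFN, BTG2 and PLK3, the window held no element without mismatch, which says only that these letters are not in this window.

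Among the tested members, the 3 largest changes on the log2(FPKM + 1) scale were those of the arrest genes CDKN1A, SFN and BTG2. Of 11 genes placed under arrest, 9 rose and 2 did not pass the test, where 4.79% of all tested genes rose. Their median log2 change was 0.73. The 11 include GDF15, a secreted stress cytokine, and ZMAT3, an RNA-binding protein gene, so the counts are not of arrest genes alone. CDKN1A encodes p21, the inhibitor of cyclin-dependent kinases through which p53 is best known to stop the cycle. It measured 73.8 and 75.7 FPKM in the controls and 239 and 229 FPKM in shWDR43 cells, with a log2 change of 1.63 ± 0.09 (SE; adjusted p = 0.000865, limma). The groups were far apart, with each shWDR43 library at 3.03 to 3.24 times each shNC library, and CDKN1A had rank 2 by p-value and rank 4 by size of rise among all tested genes. SFN encodes 14-3-3 sigma, which holds back entry into mitosis. It measured 49.4 and 55.8 FPKM in the controls and 138 and 124 FPKM in shWDR43 cells, with a log2 change of 1.30 ± 0.10 (SE; adjusted p = 0.00304, limma). BTG2, an antiproliferative gene that acts on mRNA deadenylation, measured 7.40 and 8.10 FPKM in the controls and 19.8 and 18.2 FPKM in shWDR43 cells. Its log2 change was 1.19 ± 0.09 (adjusted p = 0.00308, limma), from a control level near the middle of all tested genes (percentile 52.2). CDKN1A, SFN, BTG2 and PLK3 were 4 of the 10 genes with the smallest p-values in the whole table.

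The polo-like kinases PLK2 and PLK3, stress-responsive relatives of the mitotic kinase PLK1, both rose. PLK3 measured 20.03 and 20.5 FPKM in the controls and 45.2 and 44.4 FPKM in shWDR43 cells, with a log2 change of 1.11 ± 0.08 (SE; adjusted p = 0.00304, limma). PLK2 measured 33.6 and 37.0 FPKM against 56.9 and 57.9 FPKM, a log2 change of 0.69 ± 0.08 (adjusted p = 0.0119, limma). PLK2 was thus the higher of the pair in both groups while its ratio of means was 1.63, against 2.21 for PLK3. Exons of PLK3 overlap TCTEX1D4 on the opposite strand over 78 bases, and that gene was at 1.09 FPKM in shNC and 2.87 FPKM in shWDR43. The sources used here do not give the strand setting, and reads of such pairs cannot be told apart. The same holds for TP53I3 with FAM228B over 80 exonic bases, FBXO22 with NRG4 over 1917, ANKRA2 with UTP15 over 244, TP53I11 with TSPAN18 over 74 and POLH with GTPBP2 over 4. PHLDA3 over 598 bases and CES2 over 147 share exons with another annotated gene on the same strand. CDKN1A shares 146 bases with the antisense RNA gene DINOL, which was at 0.117 and 0.0359 FPKM in the group means.

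TP53INP1, which encodes a nuclear protein that aids p53 and autophagy, measured 6.60 and 5.55 FPKM in the controls and 13.4 and 13.2 FPKM in shWDR43 cells, a ratio of means of 2.19. ZMAT3 encodes an RNA-binding zinc-finger protein and measured 5.73 and 4.78 FPKM against 9.19 and 9.46 FPKM. The log2 changes were 1.02 ± 0.10 for TP53INP1 and 0.73 ± 0.11 for ZMAT3, with adjusted p = 0.00710 and adjusted p = 0.0203 (limma). GDF15, a secreted stress cytokine, had the highest level of the 42 genes in shNC. It measured 214 and 249 FPKM in the controls and 355 and 335 FPKM in shWDR43 cells, with a log2 change of 0.58 ± 0.11 (SE; adjusted p = 0.0343, limma). E2F7, a repressor of E2F target genes, measured 4.68 and 4.34 FPKM against 6.80 and 6.46 FPKM (adjusted p = 0.0402, limma). Without shWDR43 replicate 1 or replicate 2, GDF15 had log2 changes of 0.53 and 0.62 and E2F7 of 0.44 and 0.50, and neither passed the test.

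Among the arrest genes, CCNG1 and GADD45A did not pass. CCNG1, which encodes cyclin G1 and is a classic p53 target, measured 56.0 and 60.3 FPKM in the controls and 58.3 and 62.0 FPKM in shWDR43 cells. The log2 difference was 0.05, with a 95% interval from -0.15 to 0.24. GADD45A, a growth arrest and DNA damage gene, measured 62.5 and 79.3 FPKM against 75.7 and 70.2 FPKM, so both shWDR43 libraries lay between the shNC libraries. Its log2 difference was 0.05, with a 95% interval from -0.23 to 0.33, and -0.12 without shNC replicate 1. In the fit without shNC replicate 1 CCNG1 was at -0.00556. Both intervals lie below the estimated log2 changes of 0.47 to 1.63 of the other arrest genes, but not below all of their intervals. The interval of E2F7 (0.235 to 0.705) overlaps both, and that of GDF15 (0.314 to 0.841) overlaps that of GADD45A. No test of the difference between genes was made.

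**Figure D2:**
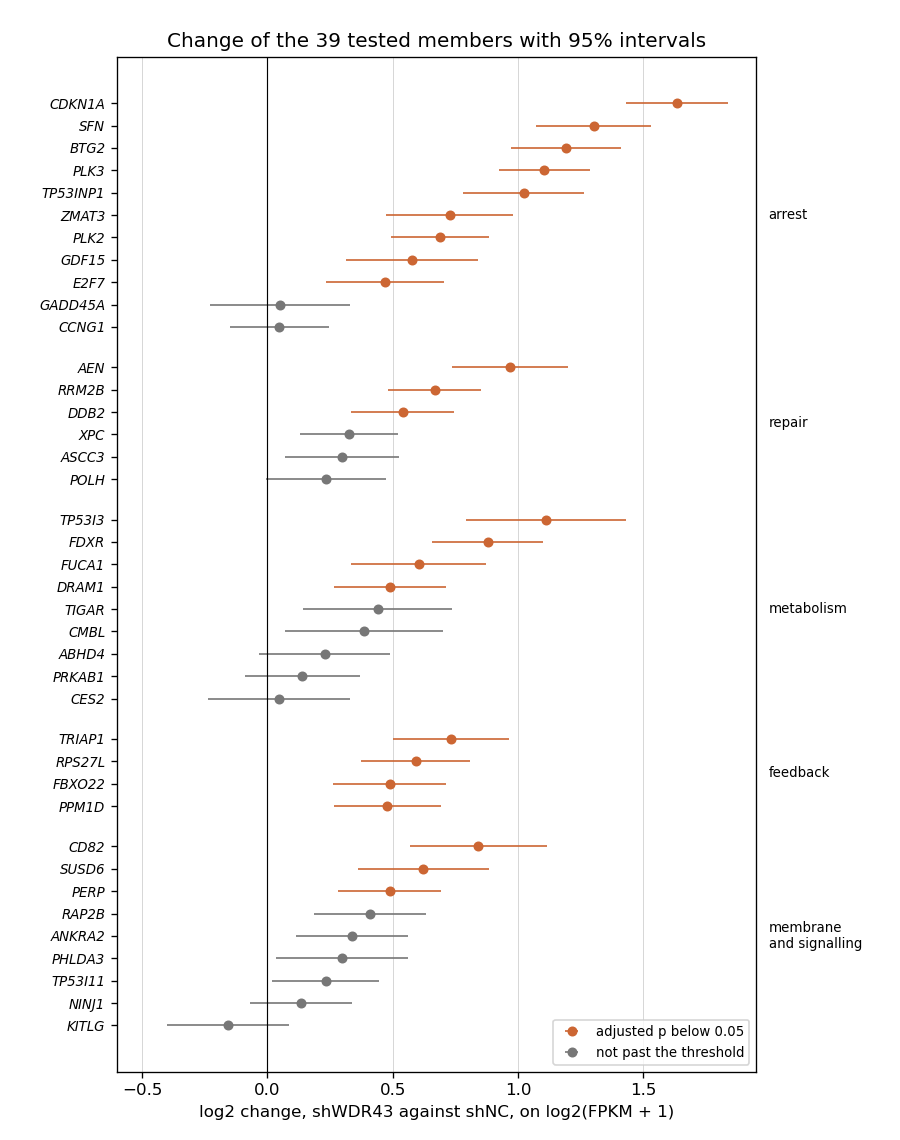
Change in log2(FPKM + 1), shWDR43 against shNC, for the 39 tested genes by role, with bars for the 95% interval of each gene from the limma fit, not adjusted for the number of genes. Orange marks passed the test after adjustment and grey marks did not, so a grey bar can lie clear of 0. Among the arrest genes CDKN1A is highest at 1.63, all 4 feedback and survival genes are orange, and KITLG is the only gene left of 0.

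Of 6 genes placed under DNA repair, 3 rose and 3 did not pass, where 4.79% of all tested genes rose. For each of the 6 both shWDR43 libraries were above both shNC libraries, against 35.8% of all tested genes. The 6 include AEN, whose product acts in dying cells, so the counts are not of repair genes alone. AEN (GRCh38 chromosome 15, 88621296 to 88632282 in GENCODE release 29, from which the positions given here come) encodes an exonuclease that digests DNA in dying cells. The gene holds the pair of elements printed above. It measured 6.64 and 7.61 FPKM in the controls and 14.4 and 15.3 FPKM in shWDR43 cells, with a log2 change of 0.97 ± 0.10 (SE; adjusted p = 0.00731, limma). RRM2B, the p53-induced small subunit of ribonucleotide reductase, supplies deoxynucleotides for repair. Its levels were 19.8 and 20.1 FPKM against 31.5 and 32.9 FPKM, a log2 change of 0.67 ± 0.08 (adjusted p = 0.0106, limma).

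DDB2 (chromosome 11, 47214465 to 47239240), which recognises ultraviolet damage in nucleotide excision repair, was the gene with the mismatch-free pair of elements. It measured 34.6 and 30.7 FPKM in the controls and 48.4 and 47.2 FPKM in shWDR43 cells, with a log2 change of 0.54 ± 0.09 (adjusted p = 0.0238, limma). XPC, another damage sensor of that pathway, measured 15.1 and 15.02 FPKM against 19.6 and 18.7 FPKM. Its log2 difference of 0.33 missed the threshold (adjusted p = 0.0621, limma) but passed without shNC replicate 1 (0.33, adjusted p = 0.0414) or shNC replicate 2 (0.32, adjusted p = 0.0334). XPC shares exonic bases with 3 genes on the opposite strand, so its level is uncertain. These are 1140 bases with AC093495.1, at 0.860 and 1.70 FPKM in the shNC and shWDR43 means, 413 with AC090004.1, at 0.337 and 0.282 FPKM, and 318 with LSM3, at 6.56 and 7.35 FPKM. ASCC3, a helicase gene of alkylation repair, had a log2 difference of 0.30 (adjusted p = 0.104, limma), which was 0.36 without shNC replicate 1. POLH, the translesion polymerase eta, measured 5.78 and 5.44 FPKM against 7.13 and 6.42 FPKM, with a log2 difference of 0.23 and a 95% interval from -0.01 to 0.47.

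Among 10 genes of metabolism and organelles, 4 rose, 5 did not pass and 1 was not tested, where 4.79% of all tested genes rose. TP53I3, also known as PIG3 (chromosome 2, 24077433 to 24085861), encodes a quinone oxidoreductase. It was low in shNC, at 1.67 and 1.94 FPKM, and was at 5.71 and 4.47 FPKM in shWDR43. The ratio of means was 2.82, the largest of the tested members after CDKN1A at 3.13, and the log2 change, which the added 1 FPKM makes smaller for low genes, was 1.11 ± 0.14 (adjusted p = 0.0120, limma). FDXR (chromosome 17, 74862497 to 74873031), the ferredoxin reductase of the mitochondrion, which feeds electrons to iron-sulphur cluster and steroid synthesis, measured 19.0 and 22.2 FPKM in the controls and 38.7 and 38.6 FPKM in shWDR43 cells. Its log2 change was 0.88 ± 0.10 (adjusted p = 0.00919, limma), and it too holds a pair of elements.

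FUCA1, a lysosomal fucosidase, measured 12.9 and 15.9 FPKM in the controls and 21.1 and 23.5 FPKM in shWDR43 cells, with a log2 change of 0.60 ± 0.12 that passed. DRAM1, a lysosomal membrane protein that promotes autophagy, measured 5.12 and 5.39 FPKM against 7.84 and 7.72 FPKM. DRAM1 passed with a log2 change of 0.49 ± 0.10 but not without shWDR43 replicate 1 (0.48) or replicate 2 (0.50). TIGAR, which lowers glycolytic flux by degrading fructose bisphosphate, measured 1.37 and 1.25 FPKM against 2.09 and 2.17 FPKM. The groups did not overlap and the ratio of means was 1.63, but the log2 difference of 0.44 did not pass (adjusted p = 0.0810, limma). TIGAR also shares 1711 exonic bases with another annotated gene on the same strand, so its level is uncertain.

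The other genes of this group showed smaller differences. CMBL, a hydrolase gene, measured 16.7 and 22.6 FPKM in the controls and 26.4 and 24.9 FPKM in shWDR43 cells. Its log2 difference of 0.39 did not pass (adjusted p = 0.123, limma) and was 0.59 without shNC replicate 2, the higher control. ABHD4, a lipase gene that also holds a pair of elements, had a log2 difference of 0.23. That of PRKAB1, a regulatory subunit of the energy sensor AMPK, was 0.14. The carboxylesterase gene CES2, whose product activates the drug irinotecan, measured 6.92 and 8.41 FPKM against 8.52 and 7.33 FPKM, and the groups overlapped. Its log2 difference was 0.05, with a 95% interval from -0.24 to 0.33, and it was -0.0788 without shNC replicate 1 and -0.0504 without shWDR43 replicate 1. SPATA18, which acts in mitochondrial quality control, was below the filter, with 0.0949 and 0.0515 FPKM in the controls and 0.179 and 0.102 FPKM in shWDR43 cells.

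All 4 genes placed under feedback and survival rose, with log2 changes of 0.48 to 0.73, where 4.79% of all tested genes rose. MDM2, both a target and the main inhibitor of p53, is not among these 4 and did not pass (log2 difference 0.25). PPM1D encodes WIP1, a phosphatase that removes activating phosphates from p53 and its kinases, and FBXO22 a ubiquitin ligase subunit that targets methylated p53. PPM1D measured 7.56 and 8.13 FPKM in the controls and 11.4 and 11.2 FPKM in shWDR43 cells, with a log2 change of 0.48 ± 0.09 (adjusted p = 0.0326, limma). FBXO22 measured 5.73 and 5.42 FPKM against 8.01 and 8.46 FPKM, a log2 change of 0.49 ± 0.10 (adjusted p = 0.0344, limma). Without shWDR43 replicate 1 or replicate 2, PPM1D was at 0.46 and 0.49 and FBXO22 at 0.52 and 0.45, and neither passed.

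TRIAP1 (chromosome 12, 120443961 to 120446412), a small mitochondrial protein that restrains apoptosis, measured 7.43 and 8.33 FPKM in the controls and 13.1 and 14.4 FPKM in shWDR43 cells. Its log2 change of 0.73 ± 0.10 (adjusted p = 0.0159, limma) was the largest of these 4. RPS27L, a ribosomal protein paralog that binds MDM2, measured 6.21 and 6.04 FPKM against 9.44 and 10.1 FPKM. It rose by a log2 change of 0.59 ± 0.09 (adjusted p = 0.0225, limma), and without shWDR43 replicate 2 the change was 0.55 and did not pass (adjusted p = 0.0576). Reads of RPS27L can be shared with its close paralog RPS27, so its level is uncertain.

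Of 11 genes of the membrane and signalling, 3 rose, 6 did not pass and 2 were not tested, where 4.79% of all tested genes rose. CD82 (chromosome 11, 44564427 to 44620363), a tetraspanin known as a metastasis suppressor, measured 2.98 and 3.69 FPKM in the controls and 6.92 and 6.57 FPKM in shWDR43 cells. Its log2 change was 0.84 ± 0.12 (adjusted p = 0.0167, limma). SUSD6, a membrane protein gene induced by DNA damage, measured 2.29 and 2.08 FPKM against 3.89 and 3.91 FPKM. PERP, a desmosome-associated tetraspan protein, measured 45.8 and 51.7 FPKM against 68.8 and 68.5 FPKM. SUSD6 and PERP passed with log2 changes of 0.62 and 0.49. Without shWDR43 replicate 1 or replicate 2, SUSD6 was at 0.62 in both fits and PERP at 0.48 and 0.49, and neither passed.

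RAP2B, a small GTPase, lay just beyond the threshold with a log2 difference of 0.41 (adjusted p = 0.0504, limma). It measured 6.63 and 7.25 FPKM in the controls and 9.27 and 9.81 FPKM in shWDR43 cells, and passed without shNC replicate 1 (0.35, adjusted p = 0.0499) or shNC replicate 2 (0.47, adjusted p = 0.0166). ANKRA2, an ankyrin repeat adaptor, had a log2 difference of 0.34 (0.41 without shNC replicate 1) and PHLDA3, which blocks AKT at the membrane, one of 0.30. The difference was 0.23 for TP53I11 and 0.13 for NINJ1, which drives membrane rupture in dying cells. For each of these 4 genes both shWDR43 libraries were above both shNC libraries, as was the case for 35.8% of all tested genes. KITLG, the ligand of the receptor KIT, was the second most abundant of the 42 in shNC. It measured 215 and 194 FPKM in the controls and 174 and 192 FPKM in shWDR43 cells, with a log2 difference of -0.16 and a 95% interval from -0.40 to 0.09. The ectodysplasin receptor gene EDA2R was listed at 0 and 0.0124 FPKM in the controls and at 0.147 and 0.0582 FPKM in shWDR43. TRIM22, an antiviral ubiquitin ligase gene, measured 0.144 and 0.255 FPKM against 0.422 and 0.332 FPKM. Neither EDA2R nor TRIM22 was tested.

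The largest changes were not limited to abundant or to scarce members. Across the 39 tested genes the rank correlation of the shNC mean with the log2 change was -0.01. Across all tested genes it was 0.03. Both are descriptions across genes that share the same 4 libraries. They depend on the scale, since the added 1 FPKM makes the change smaller for low genes, and the shNC mean is part of the change. Genes with a log2 change of at least 1 stood at control levels from 1.81 FPKM for TP53I3 to 74.7 FPKM for CDKN1A. Of 24 genes in the whole table that rose by at least 1 on this scale, 6 were among the 42: CDKN1A, SFN, BTG2, TP53I3, PLK3 and TP53INP1. The abundant GDF15, KITLG, GADD45A and CCNG1 had log2 differences of 0.58, -0.16, 0.05 and 0.05.

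**Figure D3:**
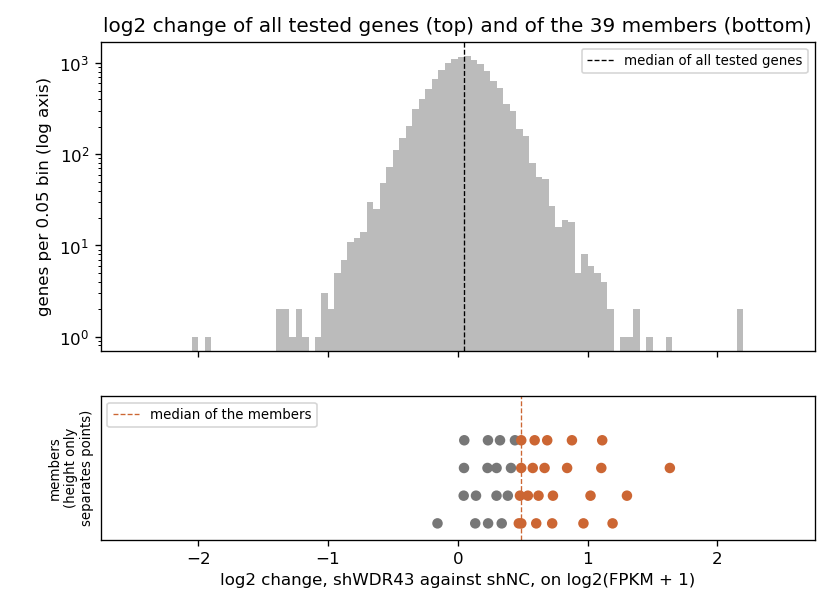
Distribution of the log2 change of all 13303 tested genes (top, number of genes per bin on a log axis) and of the 39 tested p53 targets (bottom, orange where the gene rose, grey where it did not pass, height only separating the points). The dashed lines mark the medians, 0.05 for all tested genes and 0.49 for the p53 targets.

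Other genes of the p53 pathway were read from the same fit. A list of 96 further genes reported as p53 targets, from cell death to the matrix, was likewise chosen with earlier results of these data known, so its counts are a description. Of these, 89 were tested, with a median log2 change of 0.25, against 0.05 for all tested genes. Of the 89, 25 rose (28.1%), 1 fell and 63 did not pass, where 4.79% of all tested genes rose and 1.47% fell. The number that changed was 16 without shWDR43 replicate 1 and 12 without shWDR43 replicate 2. The 8 with the smallest p-values were SULF2, SERPINB5, FAS, IGFBP3, TGFA, BLOC1S2, SESN1 and IER5. Their log2 changes ran from 0.58 for TGFA to 0.99 for the death receptor gene FAS. FAS shares 380 exonic bases with ACTA2 on the opposite strand, so its level is uncertain. SESN1, a sestrin that restrains mTORC1, measured 5.32 and 5.30 FPKM in the controls and 8.68 and 8.72 FPKM in shWDR43 cells. The gene that fell was its relative SESN2, at a log2 change of -0.53, named after its value was seen. SESN2 did not pass without shWDR43 replicate 1 (-0.54) or replicate 2 (-0.52).

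Regulators of p53 were read in the same way, with MDM2 on both lists. Of 32 genes on the list of regulators, most of which modify, bind or degrade p53, 31 were tested, with a median log2 change of -0.11. Of the 31, 0 rose, 2 fell and 29 did not pass, where 4.79% of all tested genes rose and 1.47% fell. At an unadjusted p below 0.05 there were 11 in either direction, where 26.4% of all tested genes were below it. MDM2, both a target and the main inhibitor of p53, had a log2 difference of 0.25 (adjusted p = 0.173, limma), which was 0.35 without shNC replicate 1. The exons of MDM2 overlap CPM over 133 bases and AC025423.4 over 785, both on the opposite strand. They also overlap the pseudogene AC025423.2 on the same strand over 439 bases, so the level of MDM2 is uncertain. MDM4 had a log2 difference of -0.35 (adjusted p = 0.296, limma), which was -0.70 and passed without shNC replicate 2 (adjusted p = 0.00364) and -0.00937 without shNC replicate 1. The genes that fell were PPP1R13L, which encodes the p53 inhibitor iASPP, at -0.42, and the acetyltransferase gene KAT5 (TIP60), at -0.37. Neither passed without shWDR43 replicate 1 (-0.47 and -0.36) or replicate 2 (-0.37 and -0.38). KAT5 shares 1439 exonic bases with RNASEH2C on the opposite strand, at 4.42 and 4.32 FPKM in the group means, and PPP1R13L shares 58 with CD3EAP, so their levels are uncertain.

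The share of p53 targets that rose was above the share of all tested genes under each of the 12 alternatives, though the number moved. Between 15 and 27 of the tested members rose when 1 library was left out, while the number of changed genes in the whole table ran from 377 to 2586. CDKN1A, SFN, BTG2 and PLK3 passed the test under all 12 alternatives, with CDKN1A between 1.56 and 1.66. Without a filter on low values, where 17 genes of 26938 changed, these 4 were the members that did. With median-ratio scaling 19 members rose, and GDF15, FUCA1, PERP and E2F7 lost their call. With upper-quartile scaling 16 rose, and PPM1D, FBXO22 and DRAM1 lost theirs as well. CCNG1, GADD45A and CES2, which did not pass, were at -0.0223, -0.0203 and -0.0179 under upper-quartile scaling.

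**Figure D4:**
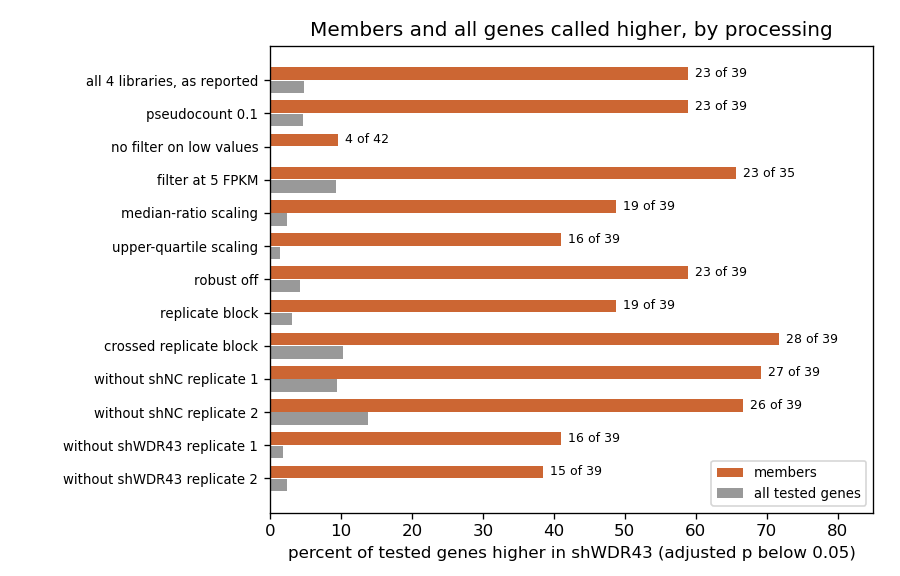
Percent of tested genes that were higher in shWDR43 (adjusted p below 0.05), for the p53 targets (orange) and all tested genes (grey), as reported and under each alternative. The labels give the number of p53 targets called and tested, from 4 of 42 without a filter on low values to 28 of 39 with the crossed replicate block, and 23 of 39 as reported.

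The deposited values summed to between 393582 and 413758 FPKM per library, and 13022 to 13373 genes reached 1 FPKM. Without read totals, the depth is unknown and no counting interval is given. The epithelial markers EPCAM, CDH1, KRT8, KRT18, KRT19, ELF3 and CDX2 were above 1 FPKM in every library, while KRT20, VIL1, CEACAM5 and LGALS4 were below 0.5 FPKM, and KRT8 rose by 0.50 (adjusted p = 0.0480, limma). Of 9 markers of blood, vessel, stroma and neurons with a value, 7 were below the filter, and they summed to 12.9 and 14.4 FPKM in shNC and 19.8 and 16.3 FPKM in shWDR43. DCN was at 0 in 3 libraries, COL1A1 was at 7.39 and 6.42 FPKM in the group means, and ACTA2, smooth muscle actin, rose from 5.43 to 10.8 FPKM in the group means. ACTA2 shares 380 exonic bases with the p53 target FAS on the opposite strand, so its level is uncertain. The part of these markers in the p53 target results was not tested. The 13 mitochondrially encoded mRNAs, a sign of RNA quality, had a median log2 change of -0.08 and 0 passed with limma (1 at an unadjusted p below 0.05).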

How the data were processed

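RNA-seq values of 4 HCT116 libraries, 2 shNC and 2 shWDR43, were used. GRCh38 and the tools HISAT2, RSEM, edgeR, Trimmomatic, FastQC and CASAVA 1.8 are named per the submitters' processing notes, with no role or order. Annotation release and strandedness were not given in the sources used here. From their range and sums, the authors' deposited values were taken to be FPKM. TPM over part of the genes cannot be told apart from it. One entry with no gene name was left out. Symbols came from a table of Ensembl identifiers (29170 of 29286 matched), gene overlaps from GENCODE release 29, and promoter sequences from RefSeq (GRCh38.p14).

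The test ran on log2(FPKM + 1) with limma 3.58.1 (R 4.3.3), for genes that reached 1 FPKM in 2 or more libraries, with group as the only term, a mean-variance trend and robust settings. There were 2 residual degrees of freedom per gene. P-values are two-sided and Benjamini-Hochberg adjusted over 13303 genes. A single gene's exact permutation test with 2 libraries a group cannot go below p = 0.333. All 42 members, MDM2, MDM4 and up to 8 changed genes of each other list are named, and the values of 1 gene that the rule also names are not reported here. The members and lists were chosen with earlier results of these data known, so no test was made on a list. On simulated data for this comparison (13303 genes, 10 simulations), 49.2% of genes changed 1.5-fold and 94.4% of those changed 2-fold were recovered. Of genes changed 1.25-fold, 3% were recovered, and 5.60% of all calls were false. The noise was drawn from the fitted model itself and was independent between libraries. These shares therefore hold only where the data follow that model. The changed genes were drawn only from those with a mean log2(FPKM + 1) above 2, so recovery of lower genes was not simulated. Folds were set on that scale, where a given step is a larger ratio in FPKM for low genes.

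Alternatives were another pseudocount, other filters, 2 scalings, a fit that left out each library, a replicate block and robust settings off. A crossed block was added after the data were seen. Python 3.11.15, pandas 2.3.3 and matplotlib 3.10.9 made the tables and figures.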

Additional observations from a re-analysis of the deposited data

How the results depend on the processing

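All 23 members that rose kept their direction under each of the 12 alternatives in which they were tested, and 4 of them kept their call under each. The number of changed members, genes in the whole table, further p53 targets and regulators was 23, 833, 26 and 2 as reported. Without a filter on low values they were 4, 17, 0 and 0. Median-ratio scaling gave 450 genes, 16 further targets and 1 regulator, and upper-quartile scaling 376 genes and 12 further targets, with 19 and 16 members. These scalings moved the split of higher to lower genes from 637 and 196 to 310 and 140, and to 194 and 182. A filter at 5 FPKM gave 4 regulators. With the replicate number as a block, 19 members, 563 genes, 21 further targets and 0 regulators changed. GDF15, FBXO22, E2F7 and DRAM1 lost their call. Across genes, the deviations of libraries with the same number had a correlation of -0.15. With 2 libraries a group this is a single contrast, which cannot show whether same-numbered libraries were handled together. The crossed block gave 28 members, 1954 genes, 38 further targets and 6 regulators. Leaving out 1 library gave 15 to 27 members, 377 to 2586 genes, 12 to 39 further targets and 1 to 8 regulators. There the single library left in a group is assumed to vary like the other group. Directions reversed for CCNG1, GADD45A and CES2, none of which passed, at -0.0223, -0.0203 and -0.0179 under upper-quartile scaling. With 1 library left out they ran from -0.00556 to 0.10, from -0.12 to 0.22 and from -0.0788 to 0.17, and were below 0 without shNC replicate 1 and, for GADD45A (-0.00407) and CES2 (-0.0504), without shWDR43 replicate 1. The cause of these shifts was not tested. The depth is unknown, so no counting interval could be set for the low genes EDA2R, TRIM22 and SPATA18.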
